A study of Rattus norvegicus with 22 samples.

Results

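The 8 genes described here encode components and receptors of the complement cascade: C1qa, C1qb and C1qc, the A, B and C chains of C1q; C1s, a protease of the C1 complex; C3, the central component; C3ar1 and C5ar1, the receptors for the anaphylatoxins released from C3 and C5; and Serping1, which encodes C1 inhibitor. They were taken by name from a gene count matrix of 17172 genes, in which all 8 were found, and all 8 were among the 12875 genes that passed the filter on low counts. Transcripts were sequenced from whole hippocampus, on the side of the injury, of adult male Sprague-Dawley rats after lateral fluid percussion, a pressure pulse to the dura that models moderate traumatic brain injury (TBI), or after sham surgery with the same craniectomy and anesthesia but no pulse. The design holds sham at day 1 (n = 2), TBI at day 1 (n = 4), sham at day 14 (n = 4) and TBI at day 14 (n = 4). Sham rats therefore carried a craniectomy and a healing wound, and are not naive rats. Sources give 14 rats for the 14 libraries, and total gene counts per library were between 15065540 and 23743703.

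Complement is a chain of plasma and tissue proteins that tags surfaces for uptake by phagocytes, recruits leukocytes and can lyse cells. C1q binds to antibody complexes, dying cells and synapses, and with the proteases C1r and C1s it starts the classical pathway, which C1 inhibitor restrains. The pathways meet at the cleavage of C3. In brain, microglia are the main source of C1q, and reactive astrocytes and myeloid cells make C3.

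Marker genes were used to check the tissue and to describe the cells it held. Summed neuron markers (6 genes) were between 2949 and 6448 CPM (gene counts scaled to library size) in TBI day 1 against 8068 to 9944 in sham day 1, where 3 of the 6 were called lower, and between 5603 and 6910 in TBI day 14 against 6802 to 8626 in sham day 14. Summed astrocyte markers (8 genes) were between 13660 and 20060 CPM in TBI day 1 against 6672 to 10660 in sham day 1, and between 9440 and 13660 in TBI day 14 against 5813 to 7144 in sham day 14; of the 8, only Gfap was called, higher at both days. The part of these cells in the values below, that of astrocytes in C3 included, was not tested. Sham day 1 replicate 1 and TBI day 14 replicates 2 and 3 stood apart: choroid plexus markers (12 genes, of which Otx2 was at 0 in every library) summed to 8694, 1547 and 7641 CPM there, and to between 8.25 and 25.7 CPM in the other 11 libraries. Results are therefore also given without these 3 libraries, which leaves 1 sham library at day 1 whose spread is taken from the other groups. Leaving out sham day 1 replicate 2 also leaves 1 sham library at day 1, the choroid-rich replicate 1. Day 1 calls gained or lost in either case rest on 1 sham library. Microglia markers (9 of 10 in the matrix, none at 0 in every library) summed to between 433 and 568 CPM in TBI day 1 and between 384 and 578 CPM in sham day 1, and to between 865 and 1431 CPM in TBI day 14 against 405 to 531 CPM in sham day 14. At day 14, 7 of the 9 were higher after TBI, and at day 1, 1 was higher and 2 (P2ry12 and Tmem119) were lower. Markers of monocytes and macrophages outside the parenchyma (7 of 8 in the matrix, none at 0 in every library) summed to between 250.5 and 462 CPM in TBI day 1, 33.9 and 59.7 in sham day 1, 52.1 and 168 in TBI day 14 and 30.3 and 38.8 in sham day 14. Neutrophil markers (8 genes) summed to between 29.5 and 77.7 CPM in TBI day 1, 4.38 and 10.1 in sham day 1, 15.5 and 26.7 in TBI day 14 and 5.57 and 7.62 in sham day 14. In bulk tissue, more cells of a type and more RNA per cell cannot be told apart.

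**Figure D1:**
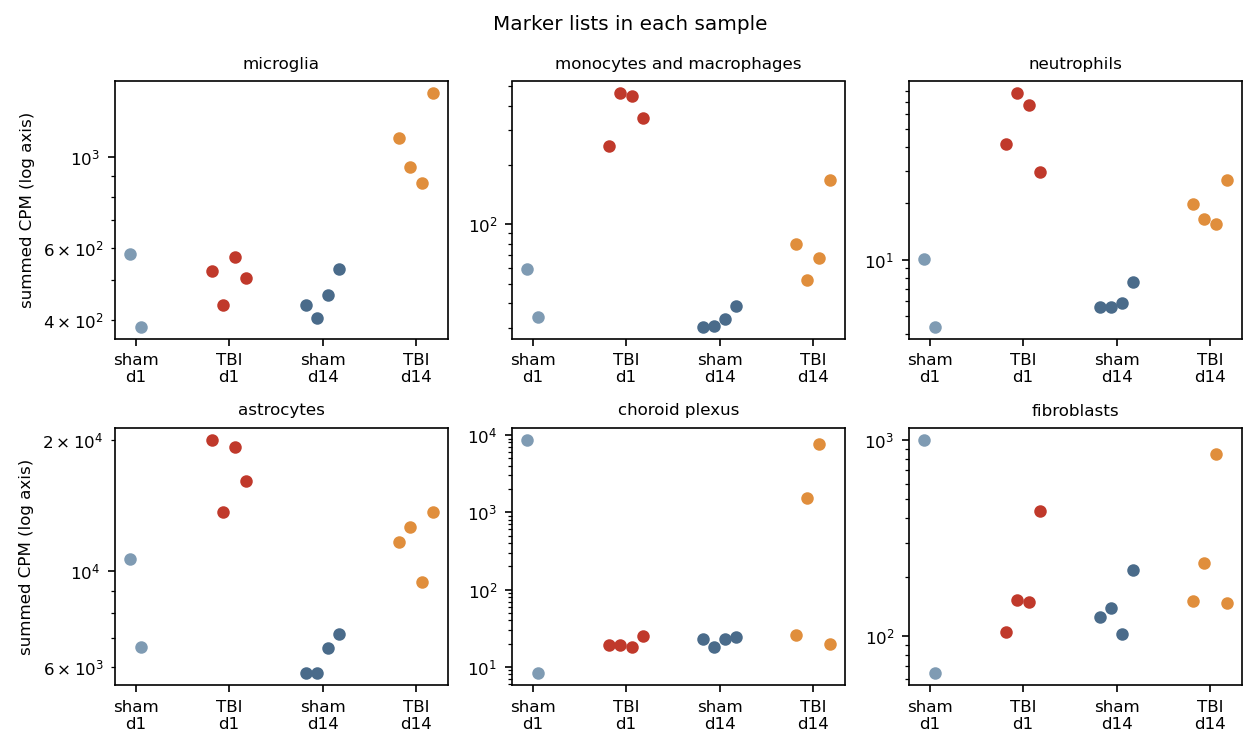
Summed CPM of marker genes (log axis, 1 panel per cell type) in each library, with the 4 groups on the x axis and 1 point per library. Microglia markers are above both sham groups in all 4 TBI day 14 libraries (865 to 1431 CPM), myeloid markers from outside the parenchyma are highest in TBI day 1 (250.5 to 462 CPM), and 3 libraries stand apart in choroid plexus markers.

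The first question was which complement genes differ between TBI and sham at each day. At day 1, 7 of the 8 genes were higher after TBI (edgeR quasi-likelihood test, adjusted p below the threshold of 0.05) and none was lower, where 11.2% of all tested genes were called higher and 7.93% lower. At day 14, all 8 were higher, where 4.07% of all tested genes were called higher and 0.365% lower. The median log2 fold change of the 8 genes was 1.90 at day 1 and 1.75 at day 14, beside medians of -0.02 and -0.03 over all tested genes. Every TBI library was above every sham library of its day for all 8 genes at both days, a pattern held by 16.7% of all tested genes at day 1 and 9.13% at day 14. Without the 3 libraries rich in choroid plexus markers, all 8 genes were called higher at both days. The spread of these tests is that between libraries of a group.

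**Figure D2:**
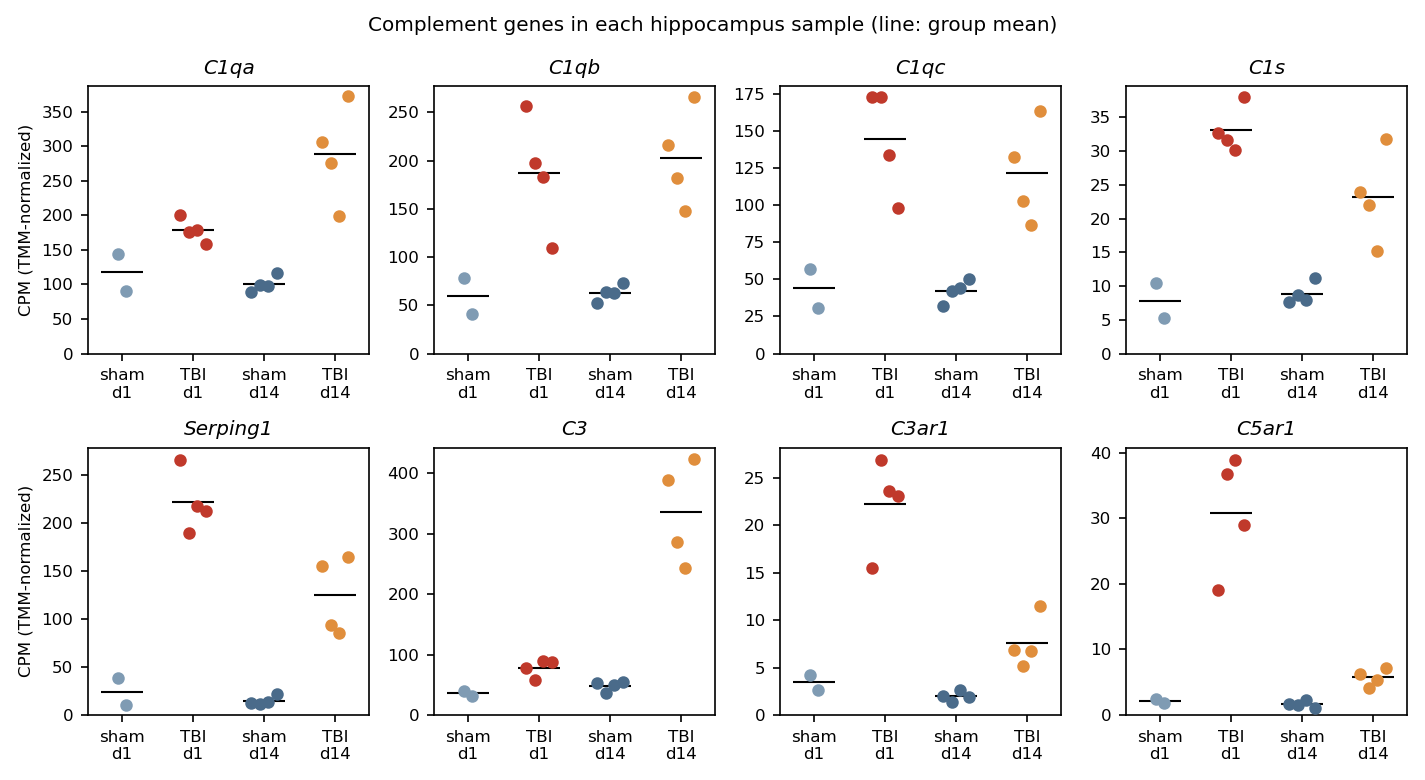
CPM (scaled by TMM factors) of the 8 complement genes, 1 panel per gene, with the 4 groups on the x axis, 1 point per library and a line at the group mean. In every panel the TBI libraries of a day lie above the sham libraries of that day, C3 is highest in TBI day 14 (244 to 423 CPM), and C3ar1 and C5ar1 are highest in TBI day 1.

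C1q is assembled from its A, B and C chains, encoded by neighboring genes: in RefSeq GRCr8, C1qb, C1qc and C1qa are consecutive protein-coding genes on chromosome 5. C1qa was at 144 and 90.6 CPM in sham day 1, and at 200.5, 176, 178 and 159 CPM in TBI day 1. It was at 89.4, 98.7, 97.6 and 116 CPM in sham day 14, and at 306, 276, 199 and 373 CPM in TBI day 14. The groups of each day did not overlap, but the smallest gap was at day 1, where sham replicate 1, 1 of the choroid-rich libraries, came close to the lowest TBI library. The log2 fold change of C1qa at day 1 was 0.60 ± 0.23 (SE) and was not called (edgeR adjusted p = 0.0752), whereas at day 14 it was 1.52 ± 0.18 (edgeR adjusted p = 0.000125). Without the 3 choroid-rich libraries the day 1 value was 0.97 and was called (edgeR adjusted p = 0.0120), and without sham day 1 replicate 2 it was 0.30 and was not called (edgeR adjusted p = 0.561).

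C1qb rose at both days. It was at 78.3 and 40.5 CPM in sham day 1, and at 257, 198, 183 and 109 CPM in TBI day 1. In sham day 14 it was at 52.6, 64.3, 62.4 and 72.7 CPM, and in TBI day 14 at 217, 182, 148 and 266 CPM. TBI day 1 replicate 4 was the lowest TBI library and still lay above both sham libraries of its day. The log2 fold changes were 1.65 ± 0.33 at day 1 (edgeR adjusted p = 0.00363) and 1.69 ± 0.26 at day 14 (edgeR adjusted p = 0.000835). Without sham replicate 2 the day 1 call was lost (log2 fold change 1.25). That left the choroid-rich replicate 1 as the only sham library of day 1. Without the 3 choroid-rich libraries the day 1 value was 2.2.

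C1qc also rose at both days, again with no overlap between TBI and sham. It was at 57.0 and 30.8 CPM in sham day 1 and at 173, 173, 134 and 98.3 CPM in TBI day 1. It was at 32.2, 42.2, 44.0 and 50.4 CPM in sham day 14 and at 133, 103, 86.5 and 163 CPM in TBI day 14. It rose by 1.72 ± 0.32 on the log2 scale at day 1 (edgeR adjusted p = 0.00207) and by 1.52 ± 0.25 at day 14 (edgeR adjusted p = 0.00126).

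A ratio of the counts of 2 chains within 1 library depends neither on scaling nor on depth, and was used to ask whether the chains moved together. The ratio of C1qb to C1qa counts was 0.543 and 0.447 in sham day 1, and 1.28, 1.13, 1.03 and 0.687 in TBI day 1. The ratio of C1qc to C1qa counts was 0.395 and 0.341 in sham day 1, and 0.863, 0.987, 0.752 and 0.617 in TBI day 1. At day 1 all 4 TBI libraries were above both sham libraries in both ratios, with differences of 1.03 and 1.11 on the log2 scale. With 4 against 2 libraries the exact permutation test (two-sided) cannot go below p = 0.133, which both ratios reached (adjusted p = 0.178 over the 4 ratio tests). At day 14 the ratio of C1qb to C1qa was between 0.588 and 0.651 in sham and between 0.661 and 0.743 in TBI, a log2 difference of 0.17 (exact permutation p = 0.0286, the smallest that 4 against 4 allows, adjusted p = 0.114). The ratio of C1qc to C1qa was between 0.361 and 0.451 in sham day 14 and between 0.373 and 0.438 in TBI day 14, and these ranges overlapped (exact permutation p = 0.886). With these group sizes no ratio could have passed the threshold after adjustment over the 4 tests, so the values stand as a description.

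**Figure D3:**
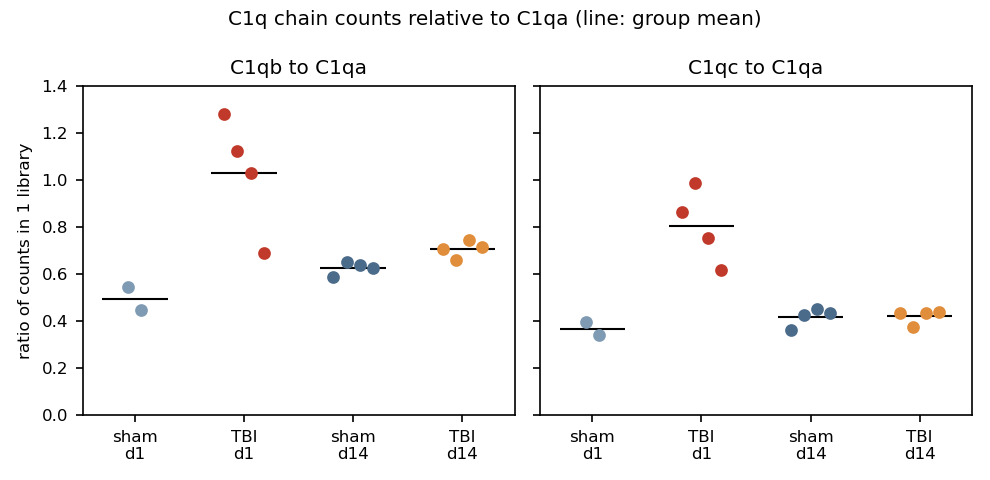
Ratio of C1qb to C1qa counts (left) and of C1qc to C1qa counts (right) in each library, with the 4 groups on the x axis and a line at the group mean. TBI day 1 libraries lie highest in the right panel (0.617 to 0.987). In the left panel they lie above both sham groups (0.687 to 1.28) and overlap TBI day 14. There, TBI day 1 replicate 4 (0.687) is below TBI day 14 replicate 3 (0.743). Sham and TBI day 14 libraries overlap in the right panel.

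The promoters of C1qa and C1qb are shown because C1qa missed the call at day 1 in the main edgeR fit and its neighbor C1qb passed it. RefSeq GRCr8 sequences of 250 bases before to 50 after the start were at hand for 4 of the 8 genes (C1qa, C1qb, C3 and C3ar1). They were searched on both strands for ETS (GGAAGT), NF-kB (GGNNTTTCC), STAT (TTCNNNGAA), C/EBP (TTGCNNAA) and IRF (GAAANNGAA) letters and for the core box (TATAAA), and capitals mark the matches, none of which overlapped another. C1qa (chr5:154419884-154420183, minus strand) held 1 STAT match at -90 and ETS matches at -107 and -79, counted from the start. C1qb (chr5:154407778-154408077, minus strand) held 1 ETS match at -61, on the opposite strand to the gene. STAT letters occur in 8.87% and ETS letters in 22.6% of the 33469 rat promoters of the same length, so these matches are a description only.
C1qa: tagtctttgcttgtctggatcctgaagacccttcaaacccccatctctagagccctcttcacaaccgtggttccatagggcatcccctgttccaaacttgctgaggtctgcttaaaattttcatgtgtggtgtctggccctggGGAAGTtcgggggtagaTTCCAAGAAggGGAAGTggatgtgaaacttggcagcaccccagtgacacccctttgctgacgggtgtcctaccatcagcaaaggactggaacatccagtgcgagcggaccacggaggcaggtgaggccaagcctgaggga
C1qb: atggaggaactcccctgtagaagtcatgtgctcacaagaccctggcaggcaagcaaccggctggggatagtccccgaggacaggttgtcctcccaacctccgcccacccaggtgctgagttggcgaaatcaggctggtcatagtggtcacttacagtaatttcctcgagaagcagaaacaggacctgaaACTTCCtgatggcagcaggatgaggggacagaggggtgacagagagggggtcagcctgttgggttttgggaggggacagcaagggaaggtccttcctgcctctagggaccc

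C1s, the protease that cleaves C4 and C2, and Serping1, whose product blocks C1r and C1s, both rose at both days. C1s was at 10.4 and 5.26 CPM in sham day 1, and at 32.7, 31.7, 30.2 and 38.0 CPM in TBI day 1. It was at 7.67, 8.65, 7.95 and 11.2 CPM in sham day 14, and at 23.9, 22.0, 15.2 and 31.7 CPM in TBI day 14. All TBI libraries were above all sham libraries, and the 4 TBI day 1 libraries were closer together than those of day 14. The log2 fold changes of C1s were 2.09 ± 0.31 at day 1 (edgeR adjusted p = 0.000366) and 1.38 ± 0.23 at day 14 (edgeR adjusted p = 0.00185).

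Serping1 was at 38.4 and 10.6 CPM in sham day 1, and at 266, 190, 217 and 213 CPM in TBI day 1. In sham day 14 it was at 12.5, 11.5, 13.5 and 21.8 CPM, and in TBI day 14 at 155, 94.2, 84.9 and 164 CPM. Sham day 1 replicate 1, with 38.4 CPM, was above the other 5 sham libraries and also held the most choroid plexus (8694 CPM) and fibroblast (1005 CPM) marker signal. The part of these cells in the Serping1 value was not tested. Serping1 was 9.07-fold higher after TBI at day 1 (log2 fold change 3.18 ± 0.47, edgeR adjusted p = 0.000347) and 8.37-fold higher at day 14 (3.07 ± 0.35, edgeR adjusted p = 8.59e-05). Without the 3 choroid-rich libraries the log2 fold changes were 4.38 and 3.45, and without sham day 1 replicate 2 the day 1 value was 2.53 (edgeR adjusted p = 0.00397). Among the 8 genes, the log2 fold change of Serping1 was the largest at day 14 and second to C5ar1 at day 1.

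C3 was the gene with the highest level in TBI day 14 relative to TBI day 1. It was at 40.1 and 31.2 CPM in sham day 1 and at 77.1, 57.3, 89.4 and 87.4 CPM in TBI day 1. It was at 53.4, 35.8, 49.1 and 55.4 CPM in sham day 14 and at 388, 286, 244 and 423 CPM in TBI day 14. The lowest TBI day 14 library was above every library outside its group. C3 was 2.18-fold higher after TBI at day 1 (log2 fold change 1.13 ± 0.26, edgeR adjusted p = 0.00713) and 6.93-fold higher at day 14 (2.79 ± 0.21, edgeR adjusted p = 5.55e-06). Without sham day 1 replicate 2 the day 1 value was 0.96 and was not called (edgeR adjusted p = 0.109). Its promoter (chr9:2201290-2201589, GRCr8, minus strand), shown because the injury effect on C3 was larger at day 14, held 1 C/EBP match at -104 (10.6% of rat promoters hold these letters).
C3: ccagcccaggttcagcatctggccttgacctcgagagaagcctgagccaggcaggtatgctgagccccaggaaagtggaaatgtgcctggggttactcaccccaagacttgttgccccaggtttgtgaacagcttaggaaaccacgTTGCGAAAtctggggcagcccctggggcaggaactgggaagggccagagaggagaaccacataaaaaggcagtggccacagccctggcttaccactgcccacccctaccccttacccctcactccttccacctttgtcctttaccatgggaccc

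The anaphylatoxin receptors, G protein-coupled receptors of myeloid cells, had the lowest counts of the 8 genes in every sham and TBI day 14 library. Counts per library were from 19 to 903 for C5ar1 and from 23 to 663 for C3ar1. In TBI day 1 replicates 2 and 3, C5ar1 (903 and 848 counts) was above C1s (780 and 659 counts). C5ar1 was at 2.48 and 1.89 CPM in sham day 1, and at 19.0, 36.7, 38.9 and 28.9 CPM in TBI day 1. It was at 1.70, 1.56, 2.22 and 1.03 CPM in sham day 14, and at 6.24, 4.16, 5.32 and 7.23 CPM in TBI day 14. Its lowest TBI day 1 library was above all TBI day 14 libraries, which in turn were above all 6 sham libraries. C5ar1 was 14.1-fold higher after TBI at day 1 (log2 fold change 3.82 ± 0.37, edgeR adjusted p = 1.29e-05) and 3.51-fold higher at day 14 (1.81 ± 0.28, edgeR adjusted p = 0.000876).

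C3ar1 showed the same order of groups. It was at 4.20 and 2.67 CPM in sham day 1, and at 15.5, 26.9, 23.6 and 23.1 CPM in TBI day 1. It was at 1.97, 1.38, 2.65 and 1.91 CPM in sham day 14, and at 6.90, 5.21, 6.76 and 11.5 CPM in TBI day 14. TBI day 1 replicate 1 was the lowest of its group for both receptors and also for myeloid markers from outside the parenchyma (250.5 CPM). It was also lowest for neuron markers (2949 CPM), but not for neutrophil markers (41.4 CPM against 29.5 in replicate 4). The part of any of these cells in the receptor values was not tested. C3ar1 was 6.49-fold higher after TBI at day 1 (log2 fold change 2.70 ± 0.36, edgeR adjusted p = 0.000170) and 3.83-fold higher at day 14 (1.94 ± 0.28, edgeR adjusted p = 0.000578). The C3ar1 promoter (chr4:157756481-157756780, GRCr8, minus strand) held 1 NF-kB match at -64, letters found in 6.05% of rat promoters.

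**Figure D4:**
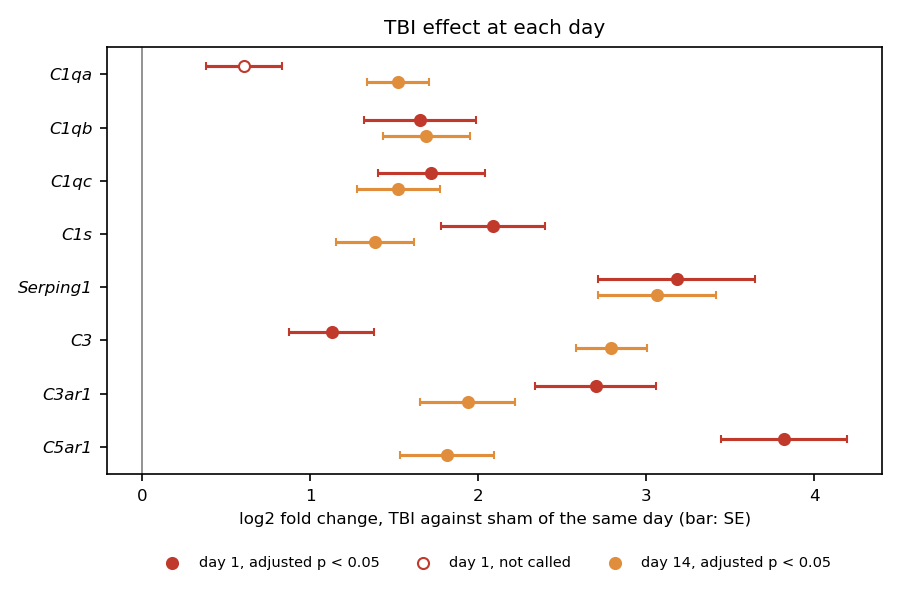
Log2 fold change of TBI against sham of the same day for the 8 genes, with bars of 1 SE; filled points passed the threshold (edgeR adjusted p under 0.05) and the open point did not. The day 14 value of C3 (2.79) lies to the right of its day 1 value (1.13), and the day 1 value of C5ar1 (3.82) to the right of its day 14 value (1.81).

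The difference between the TBI effects (the log2 fold change at day 1 minus that at day 14) was then tested for each gene. It passed for 2 of the 8 genes, 1 in each direction, where 2.24% of all tested genes had a larger and 1.44% a smaller value at day 1. The effect on C3 was smaller at day 1 by 1.67 ± 0.31 on the log2 scale (difference -1.67, edgeR adjusted p = 0.00916), and this call held in all 21 alternatives, with a largest edgeR, limma-voom or DESeq2 adjusted p of 0.0323. The effect on C5ar1 was larger at day 1 by 2.01 ± 0.44 (edgeR adjusted p = 0.0210). The C5ar1 call was lost with limma-voom (adjusted p = 0.0975), without sham day 1 replicate 2 (edgeR adjusted p = 0.0964) and without the 3 choroid-rich libraries (edgeR adjusted p = 0.0913). For C1qa the difference was -0.92 ± 0.28 (edgeR adjusted p = 0.0851); it was called with DESeq2 (adjusted p = 0.0356), without sham day 1 replicate 2 (edgeR adjusted p = 0.0426) and without TBI day 14 replicate 3 (edgeR adjusted p = 0.0336). It was not called without all 3 choroid-rich libraries (-0.81, edgeR adjusted p = 0.117), and for C3ar1 and C1s it was 0.76 and 0.70, also not called. C1qb, C1qc and Serping1 had differences of -0.04, 0.20 and 0.12, with standard errors between 0.38 and 0.52.

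Between the TBI groups themselves, day 14 against day 1, 2 of the 8 genes were higher and 2 were lower, where 17.6% of all tested genes were higher and 21.9% lower. C3 was 4.31-fold higher in TBI day 14 (log2 difference 2.11 ± 0.20, edgeR adjusted p = 6.06e-06) and C1qa was 1.62-fold higher (0.69 ± 0.18, edgeR adjusted p = 0.00747). The C1qa libraries of these groups overlapped and the C3 libraries did not. C5ar1 was 5.38-fold lower in TBI day 14 (log2 difference -2.43 ± 0.26, edgeR adjusted p = 1.09e-05) and C3ar1 was 2.93-fold lower (-1.55 ± 0.26, edgeR adjusted p = 0.000364), both with no overlap. Serping1 (-0.83, edgeR adjusted p = 0.0536), C1s (-0.52), C1qc (-0.25) and C1qb (0.12) were not called. Serping1, whose libraries of these groups did not overlap, was called with limma-voom (adjusted p = 0.0302) and DESeq2 (adjusted p = 0.0310), and its value was -0.45 without the 3 choroid-rich libraries (edgeR adjusted p = 0.182). Between the sham groups, day 1 against day 14, none of the 8 genes was called by edgeR, limma-voom or DESeq2 (1, 0 and 1 at an unadjusted p under 0.05), where 11.3% of all tested genes were higher and 7.88% lower in sham day 1. The largest sham difference was that of C3ar1 (0.79, edgeR adjusted p = 0.116), whose 2 sham day 1 libraries were above all 4 of day 14. How many of all tested genes had no overlap was counted neither between the TBI groups nor between the sham groups.

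The summed microglia markers lay above sham at day 14 and overlapped sham at day 1, so the level of each gene was also set against the sum of those markers in the same library, as a description. C1qa relative to this sum was between 0.314 and 0.405 in TBI day 1 against 0.236 and 0.250 in sham day 1, and between 0.230 and 0.292 in TBI day 14 against 0.205 and 0.244 in sham day 14. The C1qa ranges thus overlapped at day 14 and did not at day 1. C3 relative to the sum was between 0.282 and 0.348 in TBI day 14 against 0.0884 and 0.123 in sham day 14, with no overlap, whereas C1s overlapped at day 14 (0.0176 to 0.0232 against 0.0173 to 0.0214). At day 1, C3 was between 0.132 and 0.173 against 0.0694 and 0.0813, and C1s between 0.0532 and 0.0751 against 0.0137 and 0.0180, both without overlap. C1qb was between 0.216 and 0.489 in TBI day 1 against 0.106 and 0.135 in sham, and between 0.171 and 0.194 in TBI day 14 against 0.121 and 0.159 in sham, without overlap at either day. C1qc was between 0.194 and 0.400 against 0.0803 and 0.0986 at day 1, and its ranges at day 14 overlapped (0.100 to 0.119 against 0.0740 to 0.104). Serping1 relative to the sum was between 0.383 and 0.506 in TBI day 1 and between 0.0981 and 0.139 in TBI day 14, above the sham libraries of both days (0.0275 to 0.0664). C3ar1 was between 0.0294 and 0.0621 after TBI against 0.00696 and 0.00727 in sham at day 1, and between 0.00551 and 0.00804 against 0.00342 and 0.00577 at day 14, where the ranges overlapped. C5ar1 was between 0.0361 and 0.0846 against 0.00429 and 0.00492 at day 1, and between 0.00440 and 0.00615 against 0.00195 and 0.00483 at day 14, again with overlap. The markers in the sum themselves differed between TBI and sham. At day 1, Aif1 was called higher and P2ry12 and Tmem119 lower, and at day 14, 7 of the 9 were higher. A ratio is therefore not a level per microglial cell. The parts of cell numbers and of marker changes in these values were not tested. The share of all tested genes without overlap in such ratios was not counted.

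The other genes of the cascade were counted from a list of 54 complement genes, of which 47 were in the matrix and 36 passed the filter. Including the 8 genes above, 15 of the 36 were higher and none lower at day 1 (median log2 fold change 0.93), and 17 were higher and none lower at day 14 (median 0.99), where 11.2% and 4.07% of all tested genes were called higher. The day 1 count was lower without sham day 1 replicate 2, which left 1 sham library. The share of all tested genes called in that run was not counted. Of the other 28 tested genes, 8 were higher at day 1 and 9 at day 14. The counts of the smaller lists are read against the same shares, which 0 or 1 call among a few genes does not set apart. With the 8 genes above included, the classical pathway had 6 of 8 genes higher at day 1 and 7 of 8 at day 14, and the receptors had 5 of 7 at both days. Without them, these were 3 of 4 and 3 of 5 at each day. Among the 6 tested membrane regulators, which include Cd55, Cd46 and Cd59, edgeR, limma-voom and DESeq2 each called 0 at either day. At an unadjusted p under 0.05 each had 1 at day 1, and they had 0, 0 and 1 at day 14. Of the 2 tested genes of the terminal pathway, C6 and C8g, edgeR called 0 at either day (2 at day 1 and 0 at day 14 at an unadjusted p under 0.05), and DESeq2 called 1 at day 1. The lectin pathway had 1 of 4 higher at each day and the core and alternative pathway 2 of 4, or 1 of 3 without C3.

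In the classical pathway, C1r, the partner protease of C1s, rose by 1.64 ± 0.35 on the log2 scale at day 1 (edgeR adjusted p = 0.00540) and by 1.13 ± 0.27 at day 14 (edgeR adjusted p = 0.0252). C2, a substrate of C1s, rose by 1.12 ± 0.32 at day 1 (edgeR adjusted p = 0.0251) and by 2.14 ± 0.25 at day 14 (edgeR adjusted p = 0.000107). The day 1 value of C2 was 0.41 against sham day 14 (edgeR adjusted p = 0.195) and 0.61 against all 6 sham libraries (edgeR adjusted p = 0.0757). It was called in neither case, nor with only the groups compared (edgeR adjusted p = 0.0872). The C4 genes were called once each, C4b at day 1 (2.28 ± 0.47, edgeR adjusted p = 0.00394) and C4a at day 14 (1.66 ± 0.32, edgeR adjusted p = 0.00525). C4a and C4b are near-identical copies, so the split of reads between them is uncertain. Without sham day 1 replicate 2, the day 1 calls of C1r, C2 and C4b were lost (edgeR adjusted p = 0.0961, 0.304 and 0.0595), and without TBI day 14 replicate 4 so was the day 14 call of C1r (edgeR adjusted p = 0.108), as it was without 4 other day 14 libraries.

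Among the receptors, Itgam and Itgb2, the chains of complement receptor 3, were higher at both days. Itgam rose by 2.64 ± 0.49 at day 1 (edgeR adjusted p = 0.00210) and by 1.75 ± 0.36 at day 14 (edgeR adjusted p = 0.00826). Itgb2 rose by 2.43 ± 0.35 at day 1 (edgeR adjusted p = 0.000280) and by 2.42 ± 0.26 at day 14 (edgeR adjusted p = 5.31e-05). C5ar2, the other C5a receptor, was called at day 14 (1.62 ± 0.42, edgeR adjusted p = 0.0388), and Cd93, a membrane protein of endothelium and myeloid cells once named as a C1q receptor, at day 1 (1.31 ± 0.35, edgeR adjusted p = 0.0170). Both calls were sensitive to single libraries. C5ar2 had an edgeR adjusted p of 0.195 without TBI day 14 replicate 4, and was not called with limma-voom (adjusted p = 0.0812). The Cd93 call was lost without sham day 1 replicate 2 (log2 fold change 1.44) and without the 3 choroid-rich libraries (1.17).

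Of the remaining list genes, Cfd, the factor D protease of the alternative pathway, rose at both days (1.84 ± 0.55, edgeR adjusted p = 0.0309, and 2.27 ± 0.44, edgeR adjusted p = 0.00508). Fcnb, a ficolin of the lectin pathway made by neutrophils and monocytes, was called at both days from few reads, with 2 to 134 counts in TBI day 1 and 14 to 37 in TBI day 14 against 1 to 5 in sham. Its edgeR adjusted p was 0.0206 at day 1 and 0.0210 at day 14. With limma-voom Fcnb was called at neither day (adjusted p = 0.246 and 0.331). Nor was it called without the 3 choroid-rich libraries (log2 fold changes 3.68 and 3.60). Without sham day 1 replicate 2 the day 1 calls of Cfd and Fcnb were lost (edgeR adjusted p = 0.295 and 0.158), as was that of Cfd without TBI day 1 replicate 2 (edgeR adjusted p = 0.0560). Of these other 28 genes, edgeR called 0 for the difference between the days (5 at an unadjusted p under 0.05), limma-voom 0 and DESeq2 1, the nearest in edgeR being Cd93 (1.63 ± 0.44, edgeR adjusted p = 0.0532).

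**Figure D5:**
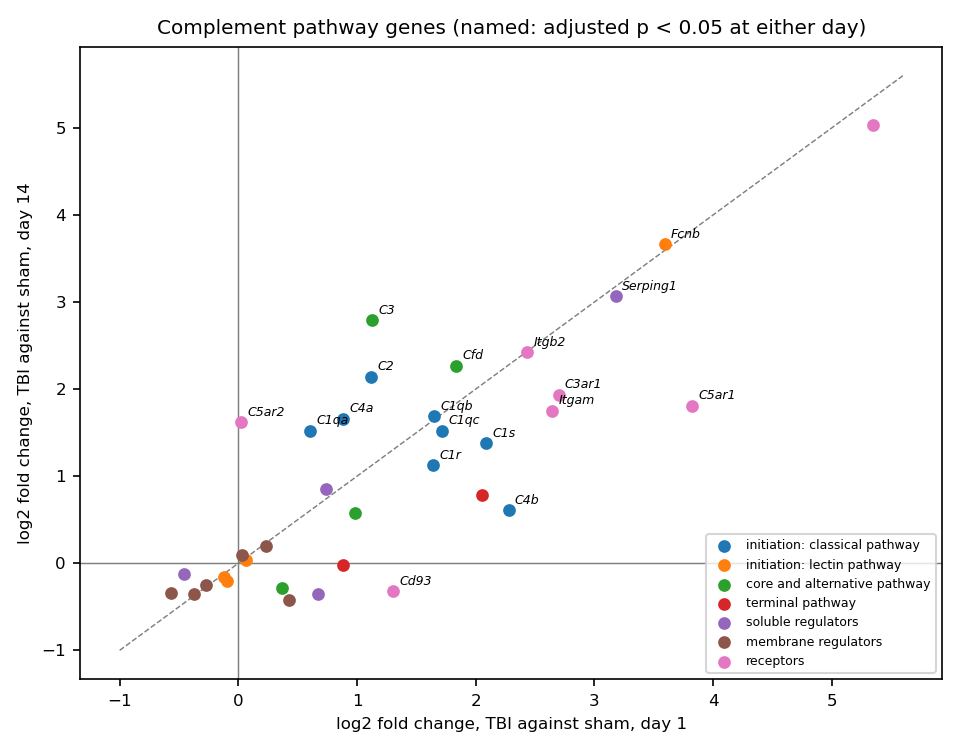
Log2 fold change of TBI against sham at day 1 (x axis) and day 14 (y axis) for tested complement genes, colored by their place in the cascade, with names for those called at either day and a dashed line of equal values. The membrane regulators lie near 0 on both axes, C3 and C2 lie above the line and C5ar1 below it. The unnamed point at the upper right is Vsig4, which had 0 counts in the sham libraries and was not called.

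Within the 8 genes, log2 CPM over the 14 libraries correlated most for C3ar1 with C5ar1 (Pearson r = 0.977) and C1qb with C1qc (r = 0.976), and least for C3 with C5ar1 (r = 0.271). These values share the group structure and are a description. Outside the complement list, the genes whose profile over the 14 libraries was most like each gene were, for C1qa, F10 (r = 0.977), Pld4 and Nckap1l, and for C1qb, Map4k1 (r = 0.959), Map3k11 and St14. For C1qc they were Pik3r5 (r = 0.969), Ifi30 and Fcgr2b, and for C1s, S100a4 (r = 0.978), Eva1b and Vat1. C3 was closest to Tifab (r = 0.973), Gna15 and Csf1r (r = 0.963), the last being the receptor on which microglia depend. C3ar1 was closest to Tnfrsf1a (r = 0.981), Sla and Fgr, C5ar1 to Npl (r = 0.981), Fgr and Cebpd, and Serping1 to Spi1 (r = 0.990), Clec12a and Ifi30. Fgr, a kinase of myeloid cells, stood among the nearest genes of both anaphylatoxin receptors, and Spi1 encodes PU.1, a regulator of myeloid cells. These likenesses share the group structure too, and which cells held the transcripts was not tested.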

How the data were processed

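The authors aligned 50-base single-end reads of stranded, poly(A)-selected libraries to rn5 with STAR 2.4.2a and counted them with featureCounts 1.5.0 on UCSC genes; the deposited matrix holds raw counts, with no normalization. Groups follow the labels. Genes were filtered with filterByExpr by group, and TMM factors and the quasi-likelihood test of edgeR 4.0.16 (R 4.3.3) were used with 1 mean per group over all 14 libraries. P-values are two-sided and Benjamini-Hochberg adjusted over the 12875 tested genes, with a threshold of 0.05. CPM use TMM-scaled library sizes, and log2 CPM a prior count of 2. Chain ratios used log2 of counts plus 0.5 and an exact permutation test. The code was tested on simulated data. Alternatives were limma-voom (limma 3.58.1), DESeq2 1.42.0, other scaling and filters, other sham baselines, a replicate block and leaving out libraries; leaving out the 3 choroid-rich libraries was chosen after seeing the data. The 8 genes and all lists were chosen with earlier results of these data known. Named genes were the 8, every list gene called at either day (1 is not reported here) and, for each of the 8, the 3 genes of most similar profile outside the list; Vsig4 and uncalled list genes were named after their values were seen. Replicates of a group differed by more than sampling noise (chi-square per degree of freedom between 13.3 and 172), so none was counted as a duplicate. H3K4me3 peak lists were not used here, because no rn5 annotation was at hand to tie peaks to these genes. No pairing of libraries by replicate number was seen.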

Additional observations from a re-analysis of the deposited data

Results flagged for a closer look

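For 2 of the 8 genes the injury effect itself differed between the days by a direct test. The log2 fold change of C3 at day 1 minus that at day 14 was -1.67 (edgeR adjusted p = 0.00916), with C3 higher in all 4 TBI libraries than in every sham library at both days. The same difference for C5ar1 was 2.01 (edgeR adjusted p = 0.0210), and between 1.82 and 2.21 over its alternatives, with adjusted p up to 0.0975. No library of a group of 4 lay far enough from the others to be singled out for any of the 8 genes.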

How the results depend on the processing

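All 8 genes were called higher at day 14 under every alternative run. At day 1, 7 were called, and between 5 (without sham day 1 replicate 2) and 8 under the alternatives. Of the 8 genes, 2 differed between the days, but 1 with limma-voom, 1 with the replicate block and 1 without the 3 choroid-rich libraries, where C5ar1 was lost and C3 kept. Between the sham groups no gene was called, and 0 to 1 when single libraries were left out (Serping1 without sham day 1 replicate 2, edgeR adjusted p = 0.0328). Complement list calls at day 1 went from 15 to 24 with sham day 14 as the baseline. These calls were counted in either direction, so the 24 need not all be rises. With single TBI day 1 libraries left out they were 14 to 17. They fell without sham day 1 replicate 2, which leaves 1 sham library. At day 14 they were 14 to 18. The share of all tested genes called was not counted under any alternative. These changes can therefore not be set apart from those over all genes.

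Some small, uncalled values changed sign. The C1qb difference between days was 0.0046 with limma-voom, 0.089 with the replicate block and 0.23 without the 3 choroid-rich libraries, and -0.44 to 0.51 with single libraries left out. With single libraries left out, that of C1qc was -0.18 to 0.70 and that of Serping1 -0.54 to 1.32. Between the TBI groups, C1qb was -0.065 to 0.31 with single libraries left out, and C1qc was 0.061 without the 3 choroid-rich libraries. Between the sham groups Serping1 was -0.49 without those libraries and -0.49 to 1.37 with single libraries left out. The day 14 log2 difference in the ratio of C1qc to C1qa was -0.062 to 0.063. Causes were not tested.

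No pairing by replicate number was seen: deviations of same-numbered libraries correlated between -0.35 and 0.24, and those of other pairs between -0.43 and 0.35. The deviations of the 2 sham day 1 libraries mirror each other, so part of this overlap is built in. A shared processing batch was not tested. The replicate block gave 7 and 8 of the 8 genes at the days, and 6 in place of 4 between the TBI groups. Day 1 values rest on 2 sham libraries, which limits their precision.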

Other observations

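Vsig4, a complement receptor of resident macrophages, had 0 counts in all 6 sham libraries. It had 14, 4, 4 and 0 counts in TBI day 1, and 0, 1, 0 and 14 in TBI day 14. Within each TBI group most of its counts thus came from 1 library, and it was not called at either day (edgeR adjusted p = 0.416 at day 14).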
